A study of Mus musculus with 4 samples.

Results

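Activation of AKT in reprogramming fibroblasts was read from 2 of the 4 arrays of the series, the pair of OSKA cells without and with 4-hydroxytamoxifen (4OHT). OSKA cells were mouse embryonic fibroblasts from several mixed male Oct4-EGFP reporter embryos at E13.5 (OE-MEFs), transduced with retroviruses for Oct4, Sox2, Klf4 and AKT-MER. AKT-MER is a fusion of myristoylated AKT and a modified oestrogen receptor, which is switched on when 4OHT binds. Ethanol vehicle (AKT-nonactivated cells, OSKA − 4OHT) or 4OHT (AKT-activated cells, OSKA + 4OHT) was given from 3 days after infection (dpi), and RNA was taken at 8 dpi. The other pair, OSK cells without and with 4OHT, was made alike but without AKT-MER, and it served as the background for 4OHT itself. The titles of the arrays gave these groups. A free-text description of the OSKA + 4OHT array reads as if AKT-MER had not been activated, against its title. There was 1 array per group, so no test between groups was possible, no p-value is given, and every difference lacks a replicate check. The cultures were mixtures of transduced and untransduced cells, in which fewer cells of a type and less RNA per cell cannot be told apart.

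AKT is a protein kinase that acts downstream of growth factor receptors and the lipid kinase PI3K. It is known to keep FOXO transcription factors out of the nucleus, to activate mTOR complex signalling and to raise glucose uptake and glycolysis. Feedback from this pathway onto insulin receptor substrates is textbook knowledge. In reprogramming cultures, the fibroblast programme is lost and epithelial genes are gained before pluripotency genes appear.

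The identity of the cells was checked first. Of 4 probes for Esr1, the oestrogen receptor gene, part of which is carried by AKT-MER, 1 was bright in OSKA cells. Its level was 3.11 in AKT-nonactivated and 3.32 in AKT-activated cells, and it was not well above background in either OSK culture. Levels here and below are on a log2 scale, where 0 stands for the 75th percentile of the spots on that array. The probe lies at chr10:5489352-5489411 (NCBI37, minus strand) and is shown because it reports the transgene in this experiment.

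Esr1 probe: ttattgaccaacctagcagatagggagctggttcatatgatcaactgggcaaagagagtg

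This check separates OSKA from OSK cells and says nothing of 4OHT. The probe of Akt1 lay between 5.82 and 5.91 on all 4 arrays. All 12 fibroblast markers were well above background on every array, with a summed level (linear, relative to the 75th percentile) of 1144 and 1214 in OSK cells and 1367 and 1531 in OSKA cells, each without and with 4OHT. All 11 macrophage markers were also above background on every array, and their summed levels were 213, 316, 305 and 274 in the same order. Every macrophage marker was lower in AKT-activated than in AKT-nonactivated cells (median −0.17), while in OSK cells every one was higher with 4OHT (median 0.55). In OSKA cells Adgre1 was lower only as a mean of −0.01, over probes that disagreed (−0.11 and 0.08).

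Of 20306 genes or transcripts measured on both OSKA arrays, 392 (1.93%) passed 2-fold upward with 4OHT and 157 (0.773%) downward, together 549 (2.70%). A gene counted as changed only if all its measured probes pointed the same way. In OSK cells 105 of 19856 genes (0.529%) were higher and 45 (0.227%) lower with 4OHT, together 0.755%. Among the 14761 genes with a symbol, to which the lists below are compared, 2.29% were higher and 0.630% lower in AKT-activated cells, together 2.92%. The OSK cells gave 0.442% and 0.193%, together 0.635%. Of the 20306 genes or transcripts 9073 (44.7%) were higher by any amount in AKT-activated cells and 11233 lower. The median over all genes was −0.03, and the error model of the scanner software gave a median error of 0.21 for a difference. Large changes were mostly rises, with 48 genes past 4-fold upward and 6 downward.

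**Figure D1:**
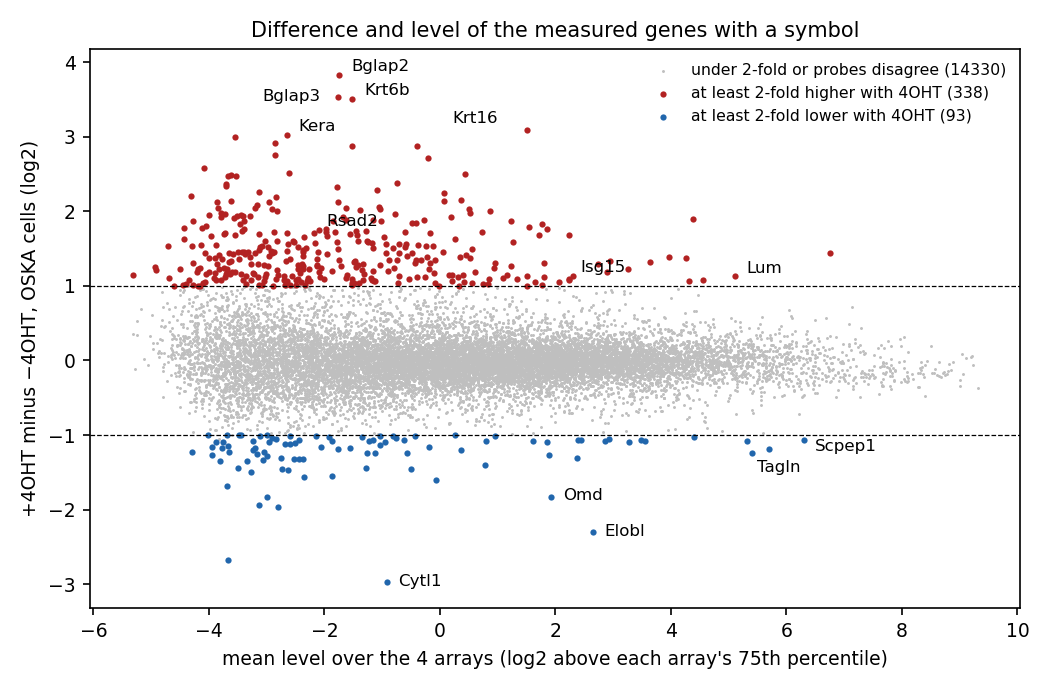
Difference between AKT-activated and AKT-nonactivated cells (log2, vertical axis) against the mean level over the 4 arrays (log2, horizontal axis) for 14761 genes with a symbol, 1 point each. Dashed lines mark 2-fold, and 338 genes lay above and 93 below with their probes pointing the same way, most of them at low levels.

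The share of genes called differed with brightness and with the number of probes. Genes were split into 3 classes of equal size by mean level. In the dimmest class 6.19% of those with 1 measured probe were called, against 2.01% of those with 2 or more. In the brightest class the shares were 0.803% and 0.584%. Of 5620 genes with 2 or more measured probes, 63.9% had probes of 1 sign and 63 were called. Where the brightest probe of such a gene changed 2-fold (103 genes), the others had the same sign in 82 and were all past 2-fold in 43. In OSK cells the corresponding counts were 38, 24 and 7. The other probes thus had the same direction in 79.6% of the OSKA cases and 63.2% of the OSK cases.

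**Figure D2:**
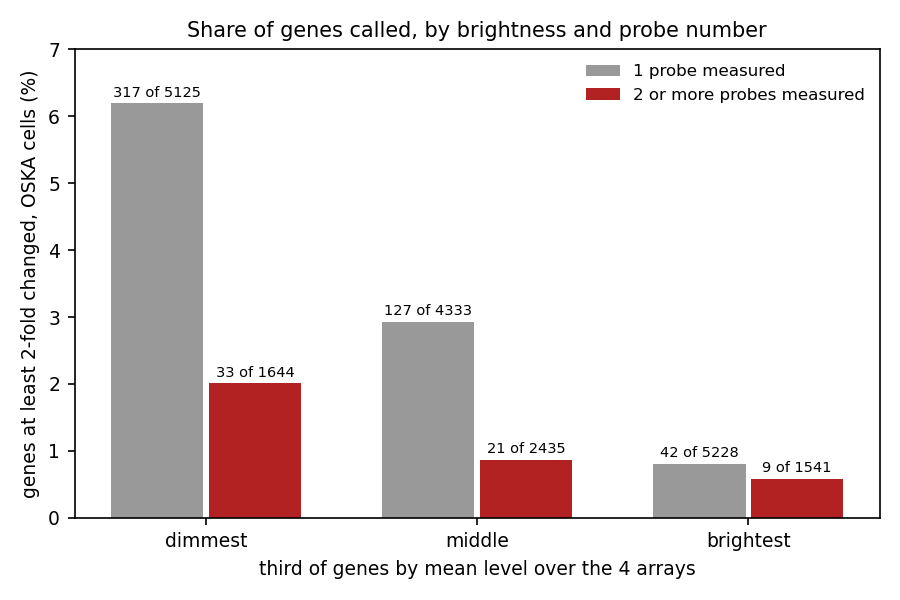
Percentage of genes at least 2-fold changed between the OSKA arrays (vertical axis) in each class of mean level (horizontal axis), for genes with 1 and with 2 or more measured probes. The number of called genes of all genes stands over each bar, and the share falls from 6.19% to 0.803% for single probes.

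Among genes with a symbol that were measured on both OSKA arrays, the largest change was that of osteocalcin, the main non-collagen protein of bone. Bglap2 lay at −3.11 and −2.78 in OSK cells without and with 4OHT, at −2.45 in AKT-nonactivated cells and at 1.38 in AKT-activated cells, a 14.2-fold rise. Bglap3, its tandem copy, lay at −2.98, −2.78, −2.42 and 1.11 on the same arrays, and rose 11.6-fold over its 2 measured probes (3.44 and 3.62 on the log2 scale). Only the AKT-activated culture stood out for either gene. The remaining copy, Bglap, was well above background in AKT-activated cells alone and was at least 5.71-fold higher there. The copies are so alike that their probes are shown, with the 25-base stretch that overlaps between them in capitals.

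Bglap2 probe: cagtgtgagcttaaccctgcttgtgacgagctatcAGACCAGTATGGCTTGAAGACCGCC
Bglap3 probe: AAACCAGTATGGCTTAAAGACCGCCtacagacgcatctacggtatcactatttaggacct

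The Bglap2 probe lies at chr3:88181822-88181881 and the Bglap3 probe at chr3:88172673-88172732 (NCBI37, minus strand). Within the overlap 2 bases differ. The Bglap2 probe and the other measured Bglap3 probe are annotated to Bglap as well, so which copy gave the signal is uncertain, while the change itself was seen by 3 probes.

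Of 18 measured genes on the bone list, 5 rose, Bglap2 and Bglap3 among them, none fell past 2-fold, and 7 were lower. Col22a1, a collagen of tissue junctions, went from −3.35 to −0.43 (7.54-fold). Phex, the phosphate-regulating endopeptidase of osteoblasts and osteocytes, rose 3.34-fold and Alpl, the tissue-nonspecific alkaline phosphatase, 2.83-fold. The transcription factor Runx2 was at −0.44 and Col1a1 at 0.10, so the list as a whole had a median of 0.05. On the cartilage list Sox9, the chondrocyte master regulator, rose 2.09-fold, while Cytl1, a secreted factor of chondrocytes, and Col10a1, the collagen of hypertrophic cartilage, fell 7.87-fold and 2.06-fold. Cytl1 lay at 0.81 and 0.78 in OSK cells, at −1.13 in AKT-nonactivated cells and at −4.11 in AKT-activated cells, the largest fall of a gene with a symbol measured on both OSKA arrays. The differences of Alpl, Phex, Sox9 and Col10a1 were under 2-fold with normexp background correction and quantile normalization.

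**Figure D3:**
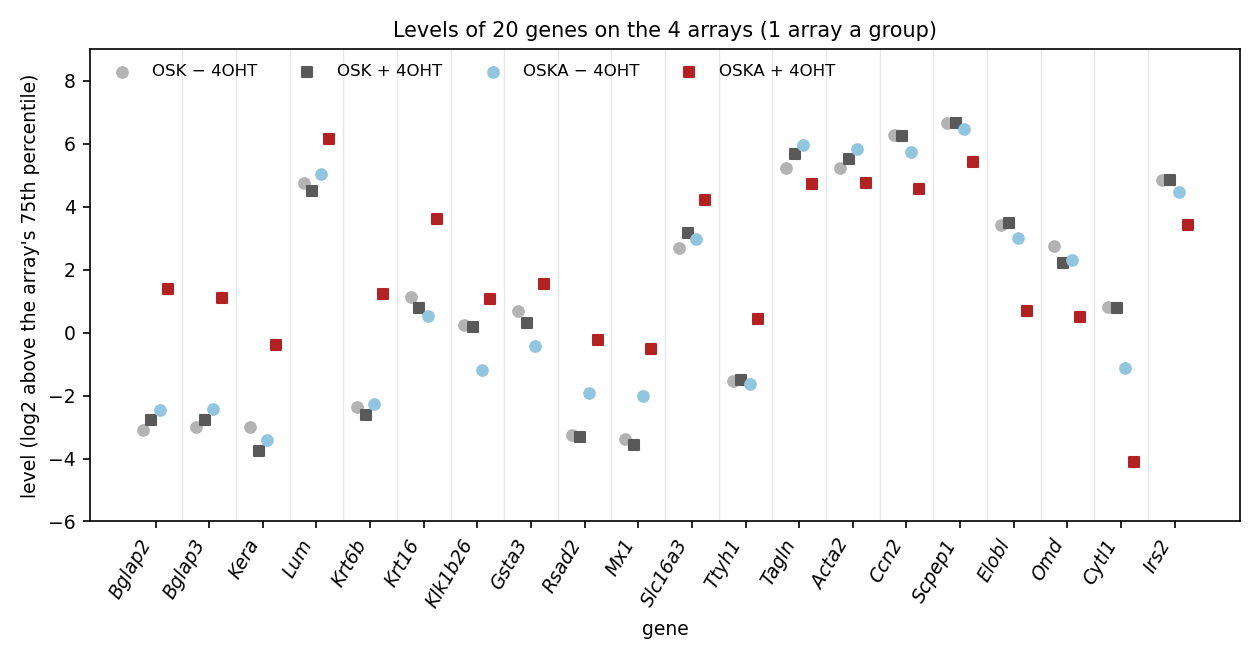
Levels (log2, with 0 at the 75th percentile, vertical axis) of 20 genes on the 4 arrays, 1 point per array. The AKT-activated culture (red squares) lies apart from the other 3 for Bglap2, Krt6b, Kera and Elobl, while for Klk1b26 and Gsta3 the AKT-nonactivated culture lies below both OSK cultures.

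The small leucine-rich proteoglycans, which bind collagen and shape its fibrils, split by chromosomal neighbourhood. On chromosome 10, Lum (lumican), Kera (keratocan) and Epyc (epiphycan) lie side by side, and all 3 rose, by 2.18-fold, 8.15-fold and 2.94-fold. Dcn (decorin), the next gene of that run, was at 0.23. On chromosome 13, Omd (osteomodulin) fell 3.54-fold, and its neighbours Ecm2, Aspn and Ogn were at −0.59, −0.43 and −0.71. Kera lay at −2.996 and −3.77 in OSK cells, at −3.42 in AKT-nonactivated cells and at −0.39 in AKT-activated cells, whereas Lum was already among the bright genes at 5.03 and reached 6.16. In OSK cells, the 4 genes of the chromosome 13 run differed by −0.30 to −0.55 with 4OHT, in the same direction as in OSKA cells, and Kera by −0.77 in the opposite one. Over the list, 10 of 14 members were lower and the median was −0.48. The rise of Epyc was under 2-fold with normexp and quantile normalization.

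Keratins gave the next largest rises. Krt6b, Krt16 and Krt6a, the stress keratins of wounded and thickened epidermis, rose 11.3-fold, 8.50-fold and 5.06-fold, and Krt14, the basal keratin, 2.51-fold. Krt16 lay at 1.13 and 0.79 in OSK cells, at 0.52 in AKT-nonactivated cells and at 3.61 in AKT-activated cells. A second Krt6b probe, also annotated to Krt6a, was not well above background in AKT-nonactivated cells, so these close copies may share signal. The simple epithelial keratins did not move as a group: Krt18 was at 0.85, Krt8 at 0.57 and Krt19 at −0.96. Among 32 measured epithelial junction genes 5 rose and 1 fell. Grhl3 and Grhl1, grainyhead factors of the skin barrier, rose 5.56-fold and 2.89-fold, Cldn3, a tight junction protein, 2.87-fold, and the desmosomal and cornified envelope genes Dsp and Evpl 2.56-fold and 2.14-fold. The epithelial splicing factor Esrp1 fell 2.40-fold, Cdh1 (E-cadherin) was at −0.14 and Epcam at −0.45. For 23 of the 29 junction genes measured on all 4 arrays, AKT-nonactivated cells lay below both OSK cultures. Evpl, for example, rose from 0.15 to 1.25, against 1.21 and 0.78 in OSK cells. Under normexp and quantile normalization Krt6a, Krt14, Grhl1, Dsp, Evpl and Esrp1 were under 2-fold.

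Some changed genes lay beside each other, several of them in tandem gene families that were chosen after their values were seen. Of 408 called protein-coding genes that could be placed in the RefSeq gene order, 82 (20.1%) lay within 3 genes of another called gene, against 11.3% of all 13992 placed genes. The pairs were not all of 1 family. In 40 of the 46 pairs both genes had the same direction, 39 of them upward, where 78.7% of the placed called genes were rises. Of the genes named next, only Nefm, Klk1b26, Elobl and Scpep1 were among those checked with normexp and quantile normalization. The fast myosin heavy chains Myh2, Myh1 and Myh8 on chromosome 11 rose 7.37-fold, 4.09-fold and 6.54-fold. Reg3g and Reg1, secreted lectins of gut and pancreas, rose 7.35-fold and 5.67-fold, and the neurofilament genes Nefm and Nefl 7.96-fold and 2.97-fold. On chromosome 7 the glandular kallikreins Klk1b24, Klk1b3, Klk1b4, Klk1b5 and Klk1 rose between 2.72-fold and 4.02-fold, and Klk1b26 rose 4.72-fold over 2 probes. Kallikrein copies are near-identical, and these probes may not count separate genes. Klk1b26 lay at 0.25 and 0.17 in OSK cells and at −1.19 and 1.05 in AKT-nonactivated and AKT-activated cells, so the activated culture was above the OSK cultures by less than 2-fold. The opposite pairs included the aldo-keto reductases Akr1c18, which rose 3.16-fold, and Akr1c14, which fell 3.05-fold. Elobl and Scpep1, neighbours on chromosome 11, both fell, by 4.92-fold and 2.09-fold.

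**Figure D4:**
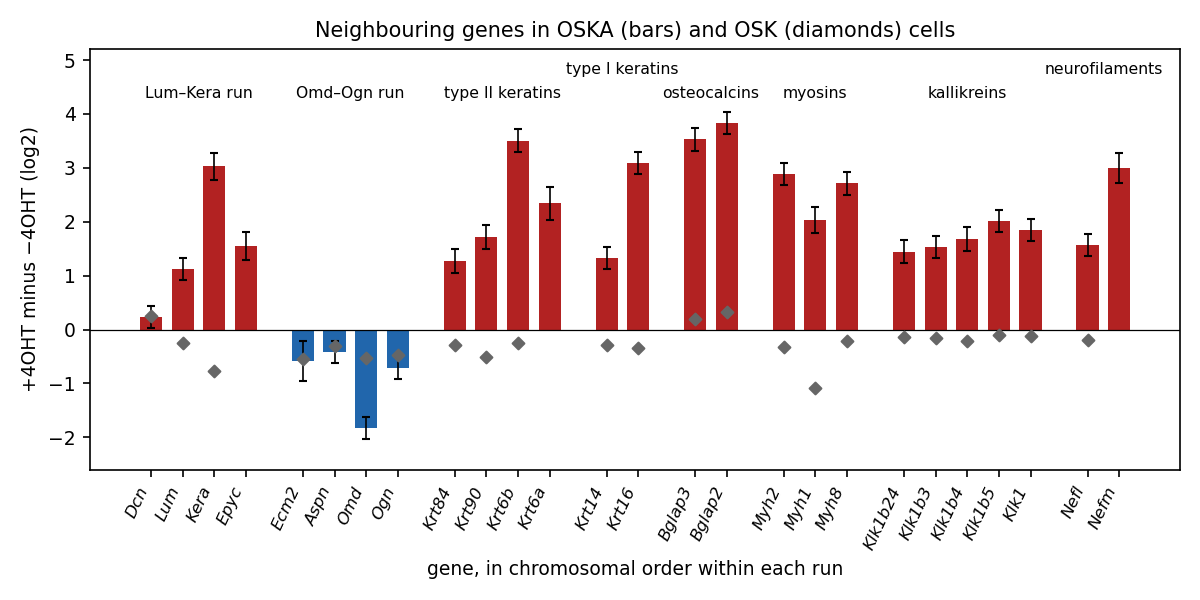
Differences (log2, vertical axis) of neighbouring genes in 8 runs, in chromosomal order. Bars give OSKA + 4OHT minus OSKA − 4OHT with the error of the scanner software, and diamonds the same contrast in OSK cells where it was measured. Lum, Kera and Epyc passed 2-fold upward and Omd downward in OSKA cells, and the Omd–Ogn run was lower in both cell types.

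Called genes with at least 2 measured probes were ranked by their mean difference. Agreement between probes was part of the call. The probes of Klk1b26, Dmkn, Mst1, Dync1i1, Tdh, Fgf18 and Scpep1 overlap on the genome, so they are not independent readings. After Bglap3 and Klk1b26 the largest rises were those of Dpp10, a modulator of potassium channels (4.353-fold), Ttyh1, a membrane protein of neural cells (4.16-fold over 3 probes of 2.02 to 2.09), Ifi206, an interferon-inducible gene (3.95-fold), Gsta3, a glutathione transferase (3.94-fold), and Dmkn, the skin protein dermokine (3.78-fold). Bdh1, which interconverts ketone bodies, rose 3.33-fold, Mst1 3.26-fold, the neurotrophin receptor Ntrk2 3.24-fold, Sostdc1, a secreted BMP and Wnt antagonist, 3.20-fold and Dync1i1, a dynein chain, 3.08-fold. Such falls numbered only 6 and were smaller. Cemip, a hyaluronan-degrading protein, fell 2.25-fold, Car10 2.17-fold, Tdh, the threonine dehydrogenase of mouse embryonic stem cells, 2.13-fold, the growth factor Fgf18 2.11-fold, Tbx6 2.10-fold and Scpep1, a lysosomal peptidase, 2.09-fold. Scpep1 was the brightest of them, at 6.65, 6.66 and 6.47 on the other 3 arrays and at 5.41 in AKT-activated cells, with its probes at −1.05 and −1.08. Gsta3 lay at 0.68 and 0.29 in OSK cells, at −0.43 in AKT-nonactivated cells and at 1.55 in AKT-activated cells. Mst1, Cemip, Car10 and Tbx6 were under 2-fold with normexp and quantile normalization, and Car10 also when its brightest probe was used. Of single-probe genes measured on both OSKA arrays, the largest falls after Cytl1 were those of the lens crystallin Crygc (6.41-fold), Elobl (4.92-fold), Diras1, a small GTPase (3.90-fold), the vomeronasal receptor Vmn1r52 (3.83-fold) and Cdcp1, a transmembrane glycoprotein (3.54-fold). For Crygc and Diras1 the AKT-nonactivated culture was the one that stood apart. Crygc lay at −4.38 and −4.01 in OSK cells and at −1.79 and −4.47 in AKT-nonactivated and AKT-activated cells, and Diras1 at −3.15 in both OSK cultures and at −1.48 and −3.44 in OSKA cells. Cdcp1 was also lower with 4OHT in OSK cells, at −1.40. Of these, Crygc was under 2-fold without the filter on dim probes, and Diras1, Vmn1r52 and Cdcp1 with normexp and quantile normalization.

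Within the PI3K-AKT pathway, receptors and adaptors were mostly lower, and the kinases had medians near 0. Of 8 measured receptors and adaptors 7 were lower (median −0.60), with 1 past 2-fold. Irs2, an insulin receptor substrate, fell 2.04-fold, from 4.46 to 3.43, against 4.86 and 4.84 in OSK cells. Igf1r was at −0.95, Irs1 at −0.88 over 2 probes and Insr at −0.52 over 3. Among the lipid kinases and phosphatases, the regulatory subunit Pik3r1 rose 2.03-fold, and the catalytic subunits Pik3cb and Pik3ca were at −0.73 and −0.33. The 7 genes of AKT and its antagonists had a median of 0.01 and the 16 downstream kinases and mTORC1 genes one of 0.00, with none called. Foxo6 rose 2.91-fold, Foxo1 and Foxo3 were at −0.04 and 0.01, Foxo4 was at −0.72 with probes that disagreed (0.04 and −1.49), and Ddit4, an inhibitor of mTORC1, was at 0.87. In OSK cells Foxo6 was at −0.59, and the pathway median was 0.02.

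Genes known to be activated by FOXO factors were lower in AKT-activated cells. Of 24 measured members 20 were lower, with a median of −0.30, against 0.05 in OSK cells, where 10 of 24 were lower. Irs2 and Klf15 passed 2-fold, Klf15 falling 2.38-fold from a dim level, a change that was under 2-fold with normexp and quantile normalization. Pik3ip1, a PI3K inhibitor, was at −0.70 over 2 probes, Rictor at −0.66, Fbxo32, a muscle ubiquitin ligase, at −0.59 and Pdk4 at −0.48. Sesn3 at 0.51 and Btg1 at 0.36 were the highest. For 15 of the 24 genes AKT-activated cells gave the lowest of the 4 arrays. Of 19 measured genes of the IGF system 13 were lower (median −0.18) and 2 rose. Igfbp5, a bright IGF-binding protein, went from 4.17 to 6.07 (3.74-fold), and Igfals, the acid-labile subunit, rose 2.32-fold from near background (under 2-fold with normexp and quantile normalization).

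Glycolytic genes were slightly and broadly higher. Of 24 measured genes 22 were higher, with a median of 0.28 against 0.06 in OSK cells, but only 1 passed 2-fold. Slc16a3, which exports lactate, lay at 2.67 and 3.17 in OSK cells, at 2.98 in AKT-nonactivated cells and at 4.199 in AKT-activated cells. This 2.33-fold rise was given by 2 overlapping probes as 1.22 and 1.23. Glycolytic enzymes had a median of 0.33, among them Pfkl at 0.53, Tpi1 at 0.48, Pgk1 at 0.46 and Gapdh at 0.29 over 7 probes. The glucose transporter Slc2a3 at −0.47 and Eno2 at −0.21 were the exceptions. Hypoxia-responsive genes outside glycolysis gave 4 rises of 20: the carbonic anhydrases Car12 (2.44-fold) and Car9 (2.21-fold), the oxygen sensor Egln3 (2.22-fold) and the mitochondrial protein Higd1a (2.11-fold). Car12 and Egln3 were under 2-fold with normexp and quantile normalization. Adm at −0.66 and Ndrg1 at −0.58 went the other way. Mdh1 at 0.67, Gpt2 at 0.71 and Bcat1 at 0.70, which handle malate and α-ketoglutarate, were the highest of 41 TCA cycle and α-ketoglutarate genes, with no gene called and a median of 0.04. The 37 respiratory chain genes had a median of 0.08, 28 of them higher.

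Lipid genes parted. Of 29 sterol synthesis and uptake genes 25 were lower, with a median of −0.38. In OSK cells 26 were lower, with a median of −0.28. Idi1 was at −0.83 in OSKA and −0.67 in OSK cells. Fatty acid genes had a median of 0.09 in OSKA and −0.20 in OSK cells. Dgat2, the last enzyme of triglyceride synthesis, rose 2.47-fold, and Scd1 and Srebf1 were at 0.91 and 0.81.

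Stress genes rose in small numbers. The ATF4 targets, which supply amino acids under stress, were higher in 29 of 34 cases (median 0.14), with rises of Slc7a11, the cystine transporter (2.75-fold), and of the hormone Fgf21 (2.20-fold). Both were dim and under 2-fold with normexp and quantile normalization. Slc7a11 and Nqo1, a quinone reductase that rose 2.60-fold, were the NRF2 targets that passed 2-fold, of 20. In OSK cells Slc7a11 was at −1.003. The p53 targets had a median of 0.08 with none called, and the BCL2 family one of −0.08.

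**Figure D5:**
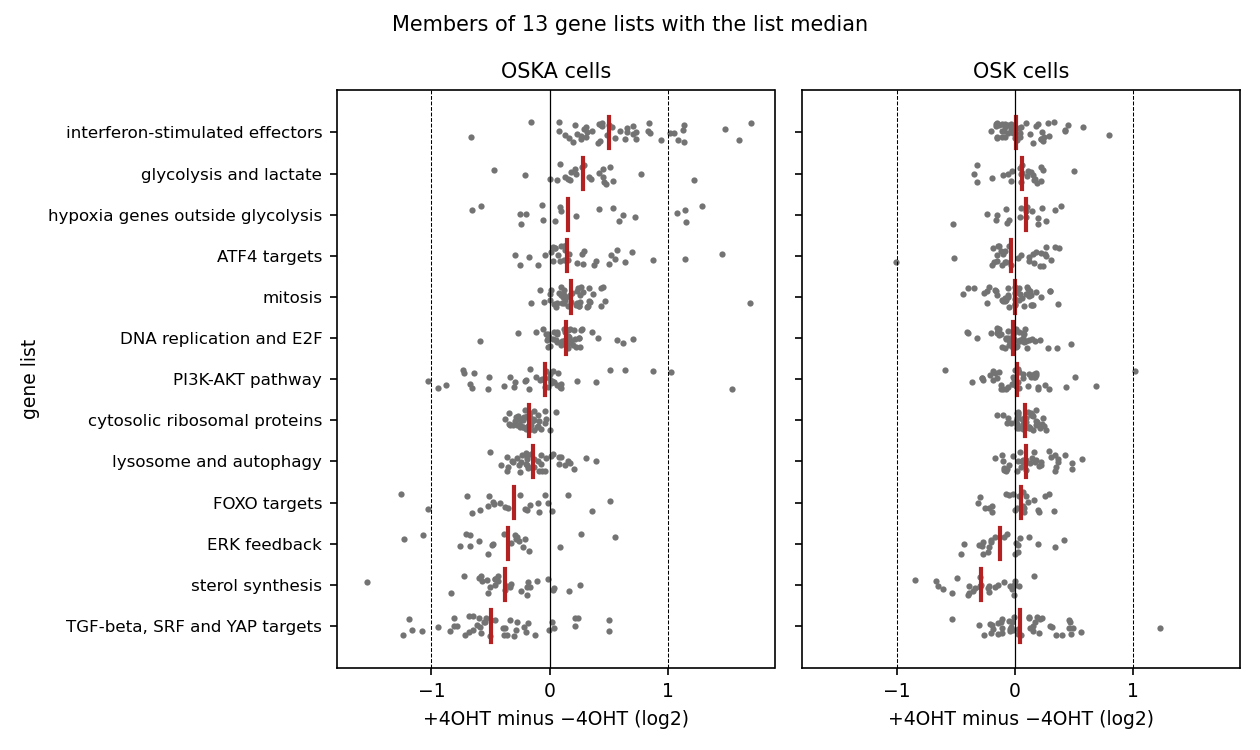
Differences with 4OHT (log2, horizontal axis) of each measured member of 13 gene lists in OSKA cells (left) and OSK cells (right). Grey points are genes, red bars list medians and dashed lines 2-fold, with the interferon list highest (median 0.50) and the TGF-beta, SRF and YAP list lowest (median −0.50) in OSKA cells.

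Interferon-stimulated genes were mostly higher. Of 47 measured effectors 45 were higher and 9 were called, all upward, and the median was 0.50 against 0.01 in OSK cells. Rsad2 (viperin), which blocks viral replication, lay at −3.24 and −3.30 in OSK cells, at −1.92 in AKT-nonactivated cells and at −0.22 in AKT-activated cells, a 3.26-fold rise. Mx1, a dynamin-like antiviral GTPase, went in the same order through −3.37, −3.57, −2.01 and −0.52 (2.80-fold). Isg15, the ubiquitin-like modifier, went through 1.56, 1.41, 2.45 and 3.53 (2.12-fold, with probes at 1.04 and 1.13). These genes were thus higher in AKT-nonactivated cells than in both OSK cultures, and higher still in AKT-activated cells. The same order held broadly, since AKT-nonactivated cells lay above both OSK cultures for 41 of 46 effectors, and AKT-activated cells gave the highest of the 4 levels for 44.

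Oasl1 and Oasl2, relatives of the oligoadenylate synthetases, rose 3.04-fold and 2.20-fold, Ifit1, which binds foreign RNA ends, 2.19-fold, the guanylate-binding protein Gbp3 2.18-fold, the nucleic acid sensor Zbp1 2.07-fold and Cmpk2, the neighbour of Rsad2, 2.02-fold. Ifitm1 at −0.67 and Isg20 at −0.16 were the only lower members. Of 23 interferon transcription factors and receptors 15 were lower (median −0.14), from Socs3 at −0.53, with Irf7 at 0.90 among the higher ones. Of the chemokines, the interferon-inducible Cxcl10 and Ccl8 rose 2.53-fold and 2.60-fold. Ccl8 was at 0.82 in OSK cells as well. Other members of the chemokine and cytokine list varied, with Tnf at −0.72, Lif at −0.73, Ccl4 at −0.65 and Tnfsf11 at 0.70, and the list median was −0.08. Cxcl13 and Cxcl3, measured in AKT-activated cells alone, were at least 2.27-fold and 2.03-fold higher. Ifnb1, an interferon gene, was well above background in AKT-nonactivated cells alone of the 4 arrays and at least 2.38-fold lower in AKT-activated cells. The macrophage markers, which were lower in AKT-activated cells, moved opposite to this group. Cmpk2 and Zbp1 were under 2-fold with normexp and quantile normalization.

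Promoters of 4 called members of this group are shown because each holds the same sequence element. The interferon-stimulated response element was searched as GAAA, any 2 bases and GAAA again, on both strands in the 250 bases before the start site (RefSeq, GRCm38.p6). It was present in 17 of 36 list members with a promoter sequence (47.2%), against 936 of all 27025 genes (3.46%). A match was found in 4 of the 7 called members that had a promoter sequence, and it stands in capitals in the 120 bases before their start sites. Overlapping matches run together.

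Isg15, chr4:156200819-156200938, minus strand: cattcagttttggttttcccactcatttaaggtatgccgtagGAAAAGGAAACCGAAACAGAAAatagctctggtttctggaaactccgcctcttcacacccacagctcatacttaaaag
Ifit1, chr19:34640769-34640888, plus strand: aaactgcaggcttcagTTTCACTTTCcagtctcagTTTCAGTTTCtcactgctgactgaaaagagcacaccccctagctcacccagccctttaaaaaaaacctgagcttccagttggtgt
Rsad2, chr12:26456453-26456572, minus strand: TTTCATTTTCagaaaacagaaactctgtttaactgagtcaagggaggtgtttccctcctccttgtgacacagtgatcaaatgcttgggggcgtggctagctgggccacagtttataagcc
Gbp3, chr3:142559924-142560043, plus strand: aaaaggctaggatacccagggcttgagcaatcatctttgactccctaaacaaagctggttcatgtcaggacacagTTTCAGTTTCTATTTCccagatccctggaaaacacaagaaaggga

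A match is a description of these letters and not of binding. The forkhead motif GTAAACA was found in 4 of 23 FOXO target promoters (17.4%, against 3.54% of all), in neither of the called ones with a promoter. The sterol motif TCACNCCAC was found in 1 of 21 (4.76%, against 1.22%).

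Contractile and matrix-tension genes were mostly lower. Of 44 measured targets of TGF-beta, SRF and YAP, which read growth factor and mechanical signals, 37 were lower and 4 fell past 2-fold, with a median of −0.50 against 0.04 in OSK cells. Tagln (transgelin) lay at 5.22 and 5.68 in OSK cells, at 5.97 in AKT-nonactivated cells and at 4.73 in AKT-activated cells, a 2.36-fold fall. Acta2, smooth muscle actin, went through 5.22, 5.53, 5.82 and 4.74 (2.12-fold), and Ccn2, a matricellular target of YAP and TGF-beta, through 6.28, 6.23, 5.74 and 4.56 (2.28-fold). The activated culture was the lowest of the 4 for all of these, and for 28 of the 44 genes. Acta1, skeletal muscle actin, fell 2.24-fold.

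All 8 measured YAP targets were lower (median −0.56), from Tead1 at −0.29 to Crim1 at −0.84, as were 13 of 15 SRF and contractile genes, such as Cnn1 at −0.81, Vcl at −0.78 and Myl9 at −0.60. The TGF-beta ligand Tgfb3 was at −0.81, the latent binding protein Ltbp2 at −0.94 and the inhibitory Smad7 at −0.65, while Tgfb2 and Ltbp1 were both at 0.50. The CArG box, to which SRF binds, was matched in 7 of 16 promoters of the SRF genes (43.8%, against 1.62% of all genes). Acta1 was the called member with a match, in capitals here.

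Acta1, chr8:123894776-123894895, minus strand: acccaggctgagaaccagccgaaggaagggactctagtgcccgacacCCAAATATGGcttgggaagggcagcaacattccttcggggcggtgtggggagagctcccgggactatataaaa

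Immediate feedback genes of the ERK pathway were lower as well. Of 22 measured members 19 were lower, with a median of −0.36 against −0.13 in OSK cells. Dusp4, a phosphatase of ERK, fell 2.35-fold and Hbegf, a ligand of the EGF receptor, 2.10-fold. Etv4 was at −0.76 over 2 probes, Spry1 at −0.71, Fosl1 at −0.68 and Myc at −0.67, and Spry4 was the highest at 0.55. AKT-activated cells were the lowest of the 4 arrays for 18 of the 22 genes, and AKT-nonactivated cells lay below both OSK cultures for 16. Acta1 and Dusp4 were under 2-fold with normexp and quantile normalization.

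Proliferation genes were slightly higher. Of 45 mitotic genes 41 were higher (median 0.18), including all 30 of the spindle, kinetochore and mitotic exit group, and 38 of 48 replication genes were (median 0.14). In OSK cells both lists divided evenly, with 23 of 45 and 21 of 48 higher. Only Ttk, a spindle checkpoint kinase, passed 2-fold (3.24-fold), from a dim probe that was under 2-fold with normexp and quantile normalization. Ribosomal protein genes were lower in 43 of 45 cases, with a median of −0.18 against 0.09 in OSK cells, and AKT-activated cells gave the lowest of the 4 levels for 41. None was called. Ribosome biogenesis genes had a median of −0.03. Of 40 lysosome and autophagy genes 29 were lower (median −0.14), and in OSK cells 30 were higher (median 0.09), as the macrophage markers were.

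Of 40 listed pluripotency genes 28 were measured. Of 28 members 17 were higher and 3 rose: Alpl, Otx2 (2.60-fold) and Fbxo15 (2.45-fold), all under 2-fold with normexp and quantile normalization. Klf5, at −0.93, was the lowest member, and Tdgf1 was at −0.73. The summed level of the iPSC markers was 3.49 in AKT-nonactivated and 3.23 in AKT-activated cells. Gene by gene, 5 of 8 measured markers were higher, and 2 of the 8 had probes that disagreed. Their median was 0.12, against −0.10 in OSK cells. The Nanog probes measured on both arrays disagreed around a mean of −0.04, a further Nanog probe was well above background in AKT-activated cells alone (−6.68 without and −3.998 with 4OHT), and Zfp42 was not well above background in either OSKA culture. Pou5f1, which the retrovirus also carries, was at 0.43. Fbxo15 was lower in AKT-nonactivated cells (−2.29) than in OSK cells (−0.89 and −1.12) and in AKT-activated cells was at −0.9996, between the levels of the OSK cultures.

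Tet1, which oxidises methylated cytosine, was at 0.54, and its 3 probes gave 0.38, 0.44 and 0.79. It lay at −1.45 and −1.54 in OSK cells, at −1.35 in AKT-nonactivated cells and at −0.81 in AKT-activated cells. Tet2 and Tet3 were at 0.09 and 0.06, each with 3 probes that disagreed, from −0.64 to 0.46 and from −0.33 to 0.68. No gene of DNA methylation or its removal was called among 17. Of the EMT factors 8 of 9 were lower, with Snai2 at −0.52 and Twist2 at −0.44, and none was called. For 3 of the 9 the probes disagreed. The median was −0.16 in OSKA cells and also −0.16 in OSK cells, where 6 of 9 were lower. Snai2 was at −0.38 with 4OHT in OSK cells.

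Positional and imprinted genes varied without many calls. All 11 HoxA genes were higher, by 0.03 to 0.44, while 6 of 7 HoxC and 6 of 8 HoxD genes were lower, and no Hox gene was called. In OSK cells all 8 HoxB genes were higher with 4OHT, by 0.32 to 0.74, and 5 of 7 HoxD genes were lower, so shifts of whole clusters were also seen without AKT-MER. Nnat, a paternally expressed gene, rose 3.03-fold over 2 probes, and the other 22 imprinted genes were not called. Nnat, Gdf5 and Sfrp4 were under 2-fold with normexp and quantile normalization. Gdf5, a joint-forming BMP ligand, rose 2.46-fold, the only call among 27 BMP and ID genes, of which 15 were lower, from Bmp4 at −0.91. Sfrp4, a secreted Wnt antagonist, rose 2.01-fold, the only call among 34 Wnt pathway genes, of which 19 were lower (median −0.07). Sostdc1, named above, was on neither list. The shares of lower genes on the BMP and Wnt lists are close to that of all genes, 11233 of 20306. Of the oestrogen-induced genes Myb rose 3.78-fold and Cited1 3.47-fold, with Igfbp5 the third, while Greb1, a classical receptor target, was at −0.91 and Ccnd1 at −0.29. In OSK cells none of the 11 was called, and Myb and Cited1 were at −0.56 and −0.34. Myb lay at 0.48 and −0.08 in OSK cells, at −0.76 in AKT-nonactivated cells and at 1.15 in AKT-activated cells.

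The OSK arrays gave the differences between cultures with and without 4OHT in cells lacking AKT-MER, with 1 array each. They were not used for the OSKA contrast. Of the 549 genes called in OSKA cells 476 were measured in OSK cells too, and 375 of these (78.8%) were within 0.5 of 0 there, against 91.9% of all 19541 genes measured in both. In OSK cells 20 of the 476 (4.2%) were also called, against 0.696% of all, 5 in the same direction and 15 in opposite ones. Of 327 higher genes, 219 had a negative difference in OSK cells (median −0.15). AKT-activated cells gave the highest of the 4 levels for 307 of them and lay at least 2-fold above both OSK cultures for 176. For 177 the AKT-nonactivated culture was the lowest of the 4. Of 149 lower genes the activated culture was the lowest of the 4 for 135 and at least 2-fold below both OSK cultures for 54. The genes were chosen by the difference between the OSKA arrays. The ranks of these arrays therefore partly follow from the choice, and no expected count was worked out.

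Some genes could be measured on 1 OSKA array only. Of the genes with a symbol 345 were well above background with 4OHT only and 470 without it only. As bounds, 150 passed 2-fold upward and 79 downward. The largest were Vstm2l, at least 14.5-fold higher, Agr2, a secretory epithelial protein, at least 11.4-fold higher, and Cntn2, an axonal adhesion molecule, at least 13.1-fold lower, named after their values were seen. On the lists, Thrsp, a lipogenic gene, was at least 5.03-fold higher, the gelatinase Mmp9 at least 3.66-fold higher, and Oas3, an oligoadenylate synthetase, at least 2.02-fold higher. Of the haemoglobin genes Hba-a1 was at least 2.85-fold higher and Hba-a2 rose 3.64-fold, from probes that share accessions, while Hbb-bh1, above background on all 4 arrays, was at −0.35, and at −0.37 in OSK cells.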

How the data were processed

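Cy3-labelled cRNA made from 100 ng of RNA was, per the labels, hybridised to 1-colour Agilent arrays. The deposited scanner files give each spot's intensity, corrected by the authors with Agilent Feature Extraction 10.7.3.1 (named in the submitters' processing notes) for background and trends, and not normalized between arrays. The deposited series matrix holds the same intensity, rounded (ratio 0.995 to 1.005). All 4 arrays shared 1 slide and scan, so an effect of position cannot be told apart from the group. No spot was saturated, and 53.6% (with 4OHT) and 55.3% (without) of OSKA spots were well above background. Precision is limited by the number of arrays.

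The log2 intensity of 59305 non-control spots, less 104 to 155 marked ones, had the 75th percentile of its array subtracted and was averaged per probe (55681). RefSeq accessions (GRCm38.p6) named 27509 probes. A difference needed probes well above background on both arrays. A gene's value is the mean of its measured probes, and it was called at 2-fold or more with all of them of 1 sign. Software errors cover 1 array, not cultures. A gene well above background on 1 array is given as "at least", with the dim array at its own value or the lowest level well above background, whichever was larger.

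Members, the 45 function lists and 9 marker lists were chosen with earlier results of these data known. Named genes were the 12 largest rises and up to 10 largest falls (6 were called) among called genes with 2 or more probes, 6 each with 1 probe, the called or extreme members of each list, the PI3K-AKT members, the markers and Akt1, Esr1, Tet1, Tet2, Tet3, Nanog, Zfp42 and Snai2. Scripts (Python 3.11.15, pandas 2.3.3, R 4.3.3, limma 3.58.1) were tested on simulated data. A few members of the lists are not reported here. In all, 11 alternatives were tried. Families and bounds outside the rule were named after their values were seen. Genes named outside the rule were not among the 87 checked under the alternatives.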

Additional observations from a re-analysis of the deposited data

Results flagged for a closer look

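The genes below were at least 2-fold changed with 4OHT in both cell types but in opposite directions, and the difference between the cell types was not tested. In OSKA cells Slc7a11 was at 1.46, Aox3 at 1.45, Lypd1 at 1.46, Nppc at 1.51, Myh1 at 2.03, Mobp at 1.30, Lgals2 at 1.06 and Il12rb1 at 1.02 (log2). In OSK cells the same genes were at −1.003, −1.16, −1.15, −1.47, −1.08, −1.17, −1.497 and −1.16. Cck was at −1.04 in OSKA and 1.45 in OSK cells, and 4931431B13Rik at −1.09 and 1.03. Nppc, the precursor of C-type natriuretic peptide, lay at −0.65 and −2.12 in OSK cells without and with 4OHT and at −1.69 and −0.18 in OSKA cells. Cck, the hormone cholecystokinin, lay at −3.71 and −2.27 in OSK cells and at −2.31 and −3.35 in OSKA cells. All are single arrays, so no sample of a group could be set against the others.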

How the results depend on the processing

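No paired analysis was possible because each group had 1 array, and for the same reason no array could be left out. In OSKA cells 392 genes were higher and 157 lower. The counts became 151 and 30 with normexp and quantile normalization, 1542 and 1040 with no filter on dim probes, and 995 and 872 at 1.5-fold. All 151 and all 30 of the normexp calls were among the 392 and 157. In OSK cells (105 higher, 45 lower) they became 17 and 7 with normexp, 960 and 854 without the filter, and 28 and 166 with scaling to the spike-in probes, which moved the OSK median of all genes by −0.31 and left 14.4% of calls higher in place of 70.0%. The share of higher calls in OSKA cells was 71.4%, 83.4% with normexp and 59.7% without the filter, which moved its median by 0.11. At 1.5-fold it was 53.3%. Relative to all genes, the list medians that moved most, by over 0.21, were the small leucine-rich proteoglycans at −0.16 in place of −0.45 and the keratins at 0.40 in place of 0.61 with normexp, and the keratins at 0.15 with the brightest probe of each gene. A list median changed sign in 23 values of 13 lists, and the germline genes, at −0.14 and 0.01 with normexp, were the list beyond 0.1. Of 87 named called genes none changed direction under any of the alternatives, and 37 were under 2-fold under at least 1, 36 of them with normexp. With no filter on dim probes Car10, Chrna1, Crygc, Esrp1 and Otx2 were under 2-fold. Dim probes and single arrays limit every fold change here.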

Other observations

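The called genes outside the lists that follow were chosen after their values were seen, and they were not checked under the alternatives. Slpi, a secreted inhibitor of leukocyte elastase made by epithelia, lay at −0.42 and −0.48 in OSK cells and at 0.11 and 2.25 in AKT-nonactivated and AKT-activated cells, a 4.43-fold rise. Plac1, a placental gene, rose 5.96-fold, Tgm5, a transglutaminase of the cornified layer, 5.61-fold, and Crnn (cornulin), of squamous epithelium, 5.17-fold. Ptgds, prostaglandin D synthase, rose 4.07-fold, Gpd1, which links glycolysis to glycerol lipids, 3.90-fold, and Ndufa4l2, a hypoxia-inducible mitochondrial protein, 3.57-fold. Pik3r3, a further regulatory subunit of PI3K, rose 3.67-fold, with 0.02 in OSK cells. Of the falls, Cilp, a cartilage matrix protein, fell 2.73-fold and Erg, an endothelial and chondrocyte transcription factor, 2.73-fold.

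Keratinocyte markers changed singly. Of 9 markers Krt14, Krt10, Trp63 and Sfn were above background on all 4 arrays, Krt5 in AKT-activated cells alone, and Lor on all arrays but that of AKT-activated cells. The summed level was 3.11 in AKT-nonactivated and 3.42 in AKT-activated cells, and Trp63 was at 0.23 with probes that disagreed. Of 10 skeletal muscle markers, Chrna1, a subunit of the acetylcholine receptor, rose 2.45-fold (under 2-fold with normexp and quantile normalization, and without the filter on dim probes), and Acta1 fell 2.24-fold. Des was above background in AKT-nonactivated cells alone, Tnnt3 was above background on all 4 arrays at a difference of −0.38, and the summed level was 1.57 and 0.857. Myl1, a fast myosin light chain outside the list, was at least 6.12-fold higher.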
